A study of Drosophila melanogaster with 12 samples.

Results

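The difference between the sexes in the response to an msl-2 transgene was measured in Drosophila melanogaster as the transgene effect in females minus the transgene effect in males, over all 12 of the 12 RNA-seq libraries of the series. Each library came from whole adult flies, and 4 groups of 3 biological replicates were compared: MSL2 females, control females, MSL2 males and control males. MSL2 females were y w flies heterozygous for the P-element msl-2 construct (w+) H83M2-6I, which carries mini-white as its marker, with wild-type chromosomes 3. Control females and control males were y w flies without the construct, and both carried the balancer chromosome TM3 over a wild-type chromosome 3. For MSL2 males the labels name no genotype beyond the expression of MSL2, and the sources used here also leave out the promoter of the construct and the age of the flies. In females the transgene and the loss of TM3 therefore came together and cannot be told apart, and in bulk RNA from whole flies fewer cells of a type and less RNA per cell cannot be told apart either.

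In males of this species the male-specific lethal (MSL) complex binds the single X chromosome and raises its transcription, which compensates for the missing second X. MSL2, encoded by msl-2, is the subunit that females normally lack, because translation of msl-2 mRNA is blocked in them. The noncoding RNAs roX1 and roX2 are assembled into the complex together with MSL1, MSL3, the helicase MLE and the histone acetyltransferase MOF. By this account males hold the complex with or without an msl-2 transgene, whereas females can form it only with one. Neither MSL proteins nor their binding to the X was measured in these RNA libraries.

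For each gene the value reported is a log2 difference, the fitted log2 fold change of MSL2 females over control females minus that of MSL2 males over control males, with its standard error. A positive difference is a larger rise or a smaller fall in females than in males. Levels are CPM, counts scaled to the effective size of the library, and a gene is called changed where the edgeR quasi-likelihood test gave a Benjamini-Hochberg adjusted p under 0.05 over all 13060 genes tested. No minimum fold was required.

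Library totals were 27729411 to 56843908 counts in MSL2 females, 33849887 to 79622278 in control females, 46030396 to 51458014 in MSL2 males and 41975875 to 53294740 in control males. A floor of 3 counts in a library corresponded to between 0.0377 and 0.108 CPM. The floor and all Poisson intervals account for counting error alone. The libraries matched their labelled sex. The summed level of the 3 yolk protein genes was 8704 to 13243 CPM in MSL2 females, 14245 to 15784 CPM in control females, 41.8 to 60.4 CPM in MSL2 males and 45.1 to 84.3 CPM in control males. MSL2 female 1 stood apart, with the lowest summed eggshell level of any female library (539 CPM) and the highest summed muscle level of any library (103590 CPM), so lists of those tissues are also given without it.

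At the threshold 165 genes were called for the difference between the sexes, 1.26% of those tested. Of these, 138 had a higher transgene effect in females than in males (1.06% of genes tested) and 27 had a lower one (0.207%). Of the 138, 114 were X-linked, out of 2075 X-linked genes tested, and of the 27 only CG1503 was X-linked. The remaining calls lay almost all on chromosome 3, with 21 higher and 24 lower of 5771 genes tested. Chromosome 2 held 2 higher genes (CG11300 and CG6337) and 2 lower ones (Rh5 and nimC3) among 5073, and chromosome 4 held 1 higher gene, Kif3C, among 82. DESeq2 called 304 higher and 115 lower genes, which put 72.6% of calls on the higher side against 83.6% with edgeR, and 161 of the 165 genes were among its calls.

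The number of calls varied with single libraries more than with any scaling. It was 23 without MSL2 male 3, 36 without MSL2 male 1, 49 without MSL2 male 2, 45, 64 and 44 without control males 1, 2 and 3, 52 without control female 1 and 46 without control female 2, but 250 without MSL2 female 3. Of the 165 genes, 21 kept their call whichever of the 12 libraries was left out, 12 of them X-linked and 7 on chromosome 3, and none of the 165 changed direction in any alternative.

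The roX RNAs of the complex showed the widest X-linked differences. The level of roX2 was 13.1, 14.1 and 9.67 CPM in MSL2 females, 0.263, 0.106 and 0.116 CPM in control females, 12.1, 12.7 and 13.7 CPM in MSL2 males and 11.3, 11.9 and 11.1 CPM in control males. MSL2 females had thus reached the range of both male groups, and control females stood alone at 24 counts in all against 1592 in MSL2 females. The log2 effect was 6.38 in females and 0.16 in males, a difference of 6.21 ± 0.30 (SE, edgeR adjusted p = 2.84e-06).

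The level of roX1 was 112, 128 and 116 CPM in MSL2 females, 6.30, 4.93 and 1.13 CPM in control females, 354, 328 and 370 CPM in MSL2 males and 353, 343 and 381 CPM in control males. Here MSL2 females lay between control females and both male groups, with no overlap on either side, and control female 3 was below the other control females. The log2 difference between the sexes was 4.93 ± 0.58 (edgeR adjusted p = 0.00601). Both roX calls were kept without any single library.

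The msl-2 transcript itself rose in both sexes. It had 513, 447 and 616 CPM in MSL2 females and 15.2, 18.8 and 18.1 CPM in control females. In males it had 576, 503 and 392 CPM with the transgene and 30.6, 32.4 and 31.9 CPM without. The transgenic libraries of the 2 sexes overlapped, while control males lay above control females, and the log2 difference of 0.96 ± 0.21 did not pass (edgeR adjusted p = 0.0609), whereas DESeq2 gave it an adjusted p of 0.00675. The other protein subunits did not pass the test either: the log2 difference was -0.49 for msl-1 (adjusted p = 0.490), -0.06 for msl-3 (adjusted p = 0.842), 0.00 for mle (adjusted p = 0.997) and 0.16 for mof (adjusted p = 0.717). For CG1832, annotated as Clamp, a DNA-binding protein that helps target the complex to the X, it was -0.21 (adjusted p = 0.327). Of the 8 genes listed for the complex, edgeR called 2 and DESeq2 3, all higher.

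Transcripts of w, the ABC transporter gene carried by the mini-white marker, rose in both sexes as well. Transcripts of the marker and of the w locus on the X cannot be told apart in these counts. They had 17.9, 18.3 and 19.99 CPM in MSL2 females, 0.379, 0.918 and 0.854 CPM in control females, 26.3, 19.7 and 24.8 CPM in MSL2 males and 4.27, 3.60 and 3.54 CPM in control males. On the CPM scale the rise was 18.03 CPM in females and 19.8 CPM in males, and control males were higher than control females without overlap. On the log2 scale it was 4.63 in females and 2.63 in males, a difference of 2.0 ± 0.29 (edgeR adjusted p = 0.0147) that did not pass without MSL2 male 3 (adjusted p = 0.0524).

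**Figure D1:**
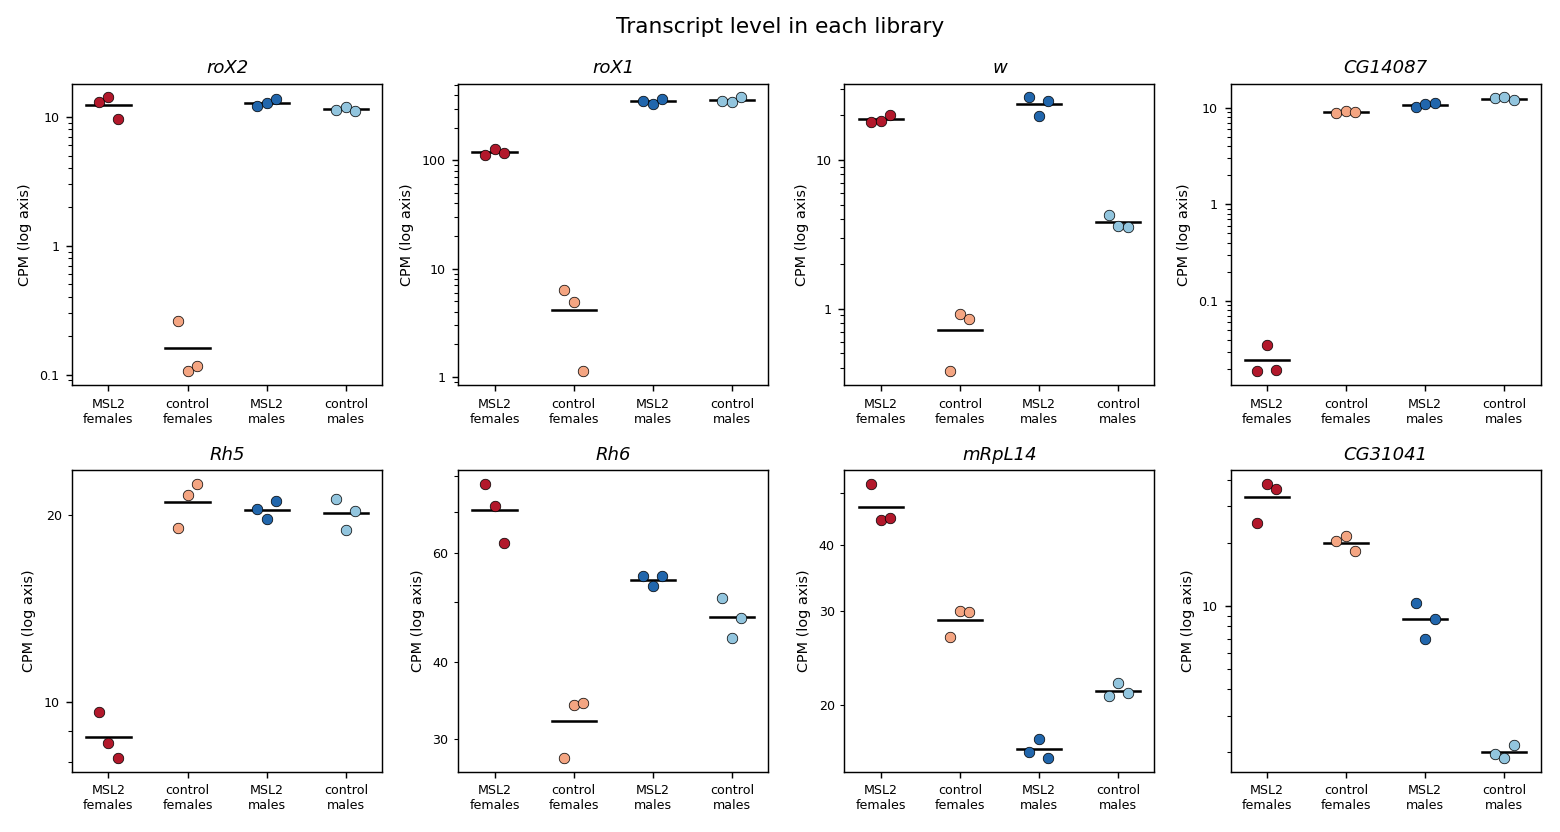
Level of 8 genes in each of the 12 libraries, in CPM on log axes whose ranges differ between panels, with a line at each group mean (n = 3). roX2 and roX1 were low in control females alone, CG14087 and Rh5 were low in MSL2 females alone, and CG31041 rose in both sexes, by 0.72 in females and 2.11 in males (log2).

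Across the X chromosome the transgene effect moved upward in females and not in males. The median log2 difference between the sexes was 0.22 over X-linked genes and -0.04 over genes of the autosomal table, a shift of 0.255. The median log2 effect on X-linked genes was 0.19 in females and -0.02 in males, and on autosomal genes it was -0.04 in females and 0.01 in males. Of the X-linked genes 73.2% had a fitted effect above 0 in females and 43.2% in males. The shift lay between 0.237 and 0.267 when each library was left out in turn.

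**Figure D2:**
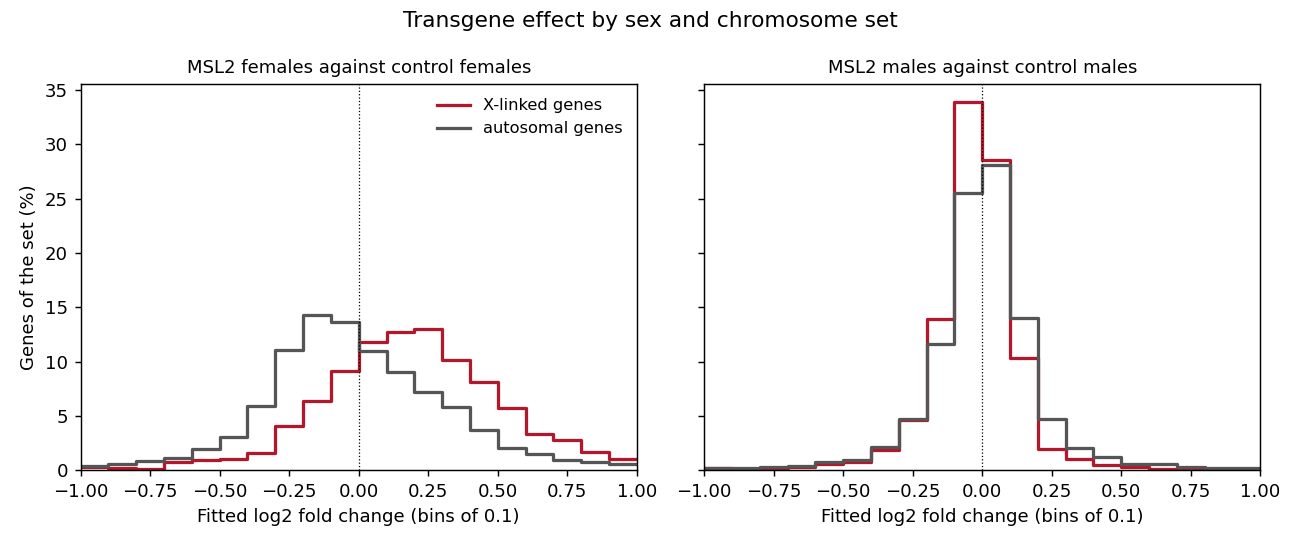
Distribution of the fitted log2 fold change of MSL2 over control flies for X-linked genes (red) and genes of the autosomal table (grey), in females (left) and males (right), as the percentage of each set per bin of 0.1. The X-linked curve is moved to the right of the autosomal one in females, with medians of 0.19 and -0.04, and the 2 curves nearly coincide in males, with medians of -0.02 and 0.01.

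The same comparison was made in each library from its deviation from the control mean of its own sex. The X-linked median exceeded the autosomal one by 0.24, 0.21 and 0.23 (log2) in the 3 MSL2 females, with a mean of 0.23 ± 0.018 (SD, n = 3). In control females the value was 0.0030, 0.012 and -0.012. In MSL2 males it was -0.0058, -0.0086 and -0.054, with a mean of -0.023 ± 0.027 (SD, n = 3), and in control males -0.021, 0.026 and -0.0074. The 3 MSL2 females stood above all 9 other libraries, while MSL2 males overlapped control males. Control libraries lay around 0 by construction, since their own mean was the reference. The difference of 0.251 between MSL2 females and MSL2 males had an exact two-sided permutation p = 0.1, the smallest that 3 against 3 libraries can give. Permuting the transgene labels within each sex, whose null is no effect in either sex, gave a two-sided permutation p = 0.025 over 400 arrangements. The control mean was not recomputed for each arrangement, so this p is not exact.

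**Figure D3:**
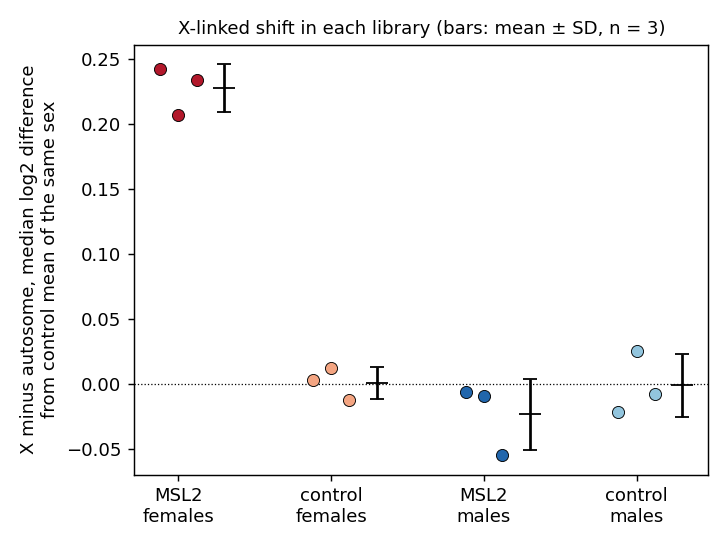
Median over X-linked genes minus median over autosomal genes of the log2 CPM deviation from the control mean of the same sex, 1 point per library, with mean ± SD at the side (n = 3). MSL2 females sit between 0.21 and 0.24, and the other 9 libraries lie between -0.054 and 0.026.

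The shift was present at every expression level. With genes split at the quartiles of mean log2 CPM it was, from the lowest level to the highest, 0.18, 0.22, 0.30 and 0.26. The calls were not spread as evenly: 6, 19, 45 and 44 X-linked genes were called higher in the same order of level. Over genes whose control levels differed between the sexes by no more than 1 on the log2 scale the shift was 0.29, with 104 of 1242 X-linked genes called higher.

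Among the 114 X-linked genes called higher, the median log2 effect was 0.61 in females and -0.04 in males. The female effect of all 114 was itself called. The male effect lay within 0.2 of 0 for 99 of them (86.8%), beside 86.7% of all X-linked genes. Their log2 differences ran from 0.38 to 6.21, with the 25th and 75th percentiles at 0.52 and 0.80, and 13 of them exceeded 2-fold. Some of these are not independent calls: CG33713 and CG33714 had identical counts in every library, and the counts of inaF-A with inaF-C, inaF-B with inaF-D and CG4199 with sdt were within 10% of each other. The 114 include w, which the construct also carries.

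After roX2, the smallest X-linked adjusted p belonged to 2 mitochondrial ribosomal protein genes. mRpL14, a protein of the large mitochondrial ribosomal subunit, had 52.0, 44.5 and 44.8 CPM in MSL2 females and 26.8, 30.1 and 29.9 CPM in control females. In males it had 16.3, 17.2 and 15.9 CPM with the transgene and 20.8, 22.0 and 21.1 CPM without. The transgenic libraries were thus above their controls in females and below them in males, without overlap in either sex, and the log2 difference was 1.07 ± 0.11 (edgeR adjusted p = 0.00276). mRpL49, of the same subunit, had the same arrangement, with log2 effects of 0.43 in females and -0.32 in males, each called, and a difference of 0.75 ± 0.08 (edgeR adjusted p = 0.00276). It was the 1 gene of the series called in opposite directions in the 2 sexes.

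Other X-linked genes rose in females with no call in males. msta (SmydA-8), a gene of the SET and MYND domain family, had 50.6, 43.2 and 41.4 CPM in MSL2 females, 22.3, 25.02 and 24.1 CPM in control females, 26.6, 25.5 and 26.2 CPM in MSL2 males and 27.6, 27.2 and 27.1 CPM in control males. MSL2 females alone stood apart, and the log2 difference was 0.98 ± 0.11 (edgeR adjusted p = 0.00509). Roc1a, the RING subunit of cullin ubiquitin ligases, had 217, 207 and 193 CPM in MSL2 females and 125, 125 and 131 CPM in control females, against 82.1 to 89.4 CPM in the 6 male libraries. Its groups did not overlap in females and did in males, with a log2 difference of 0.70 ± 0.09 (edgeR adjusted p = 0.00964). FucTC, a fucosyltransferase gene, differed by 1.31, CG15738 (sicily, an assembly factor of respiratory complex I) by 0.69, CG14408 by 0.54 and CG3568 by 1.28, all with an adjusted p of 0.00964. Their log2 effects in males were -0.22 for FucTC, -0.19 for CG15738, 0.09 for CG14408 and -0.02 for CG3568. These 6 calls, and those of both ribosomal genes, were kept without any single library. In a fit with the replicate number as a block, msta and both ribosomal genes passed. Roc1a, FucTC, CG15738, CG14408 and CG3568 did not pass in that fit (edgeR adjusted p = 0.0552 to 0.0617). The latter genes were chosen for mention after their values were seen.

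Members of the same protein families on the X and on the autosomes were set side by side, with families picked after the values were seen and no test made. As the background for every family, 5.54% of all X-linked genes tested and 0.455% of all autosomal ones were called. The median differences over all X-linked and all autosomal genes were 0.22 and -0.04. Respiratory complex I oxidises NADH at the start of the mitochondrial electron transport chain. All of its 9 X-linked members had a difference above 0, with a median of 0.88 (log2), and 4 were called: CG3192 (ND-ASHI), CG3621 (ND-B14.5A), CG5703 (ND-24) and CG9172 (ND-20). Of its 31 autosomal members 27 were above 0, with a median of 0.25, and none was called. Those not above 0 were the paralogs ND-51L1, ND-49L, ND-B14.5AL and ND-51L2. ND-24, for example, had 442, 317 and 323 CPM in MSL2 females, 197, 194 and 231 CPM in control females, 194 to 202 CPM in MSL2 males and 203 to 213 CPM in control males. MSL2 female 1 was the highest of its group for all 4 of the called genes, and without MSL2 male 3, among other libraries, none of them passed.

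The mitochondrial ribosome had 3 of 11 X-linked members called (mRpL14, mRpL16 and mRpL49) at a median difference of 0.45, beside 0 of 62 autosomal members at 0.00. The median effect of its X-linked members was 0.25 in females and -0.22 in males. For its autosomal members it was -0.14 in females and -0.16 in males. Among Rab GTPases, which direct vesicle traffic, 2 of 11 X-linked members were called (Rab21 and Rab39) at a median of 0.40, beside 0 of 20 autosomal members at -0.03. The autosomal median difference of both families took the other sign under another scaling. The proteasome had a median of 0.54 over 6 X-linked members, none called, beside 0.09 over 42 autosomal members, of which the paralog Rpt3R was called. For the cytosolic ribosome the median differences were 0.19 over 14 X-linked members and -0.08 over 78 autosomal ones, with no call in either. The median effect was 0.06 in females and -0.16 in males for X-linked members, and -0.21 and -0.14 for autosomal ones. All 14 X-linked ribosomal protein genes had a difference above 0, and 16 of the 78 autosomal ones did.

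**Figure D4:**
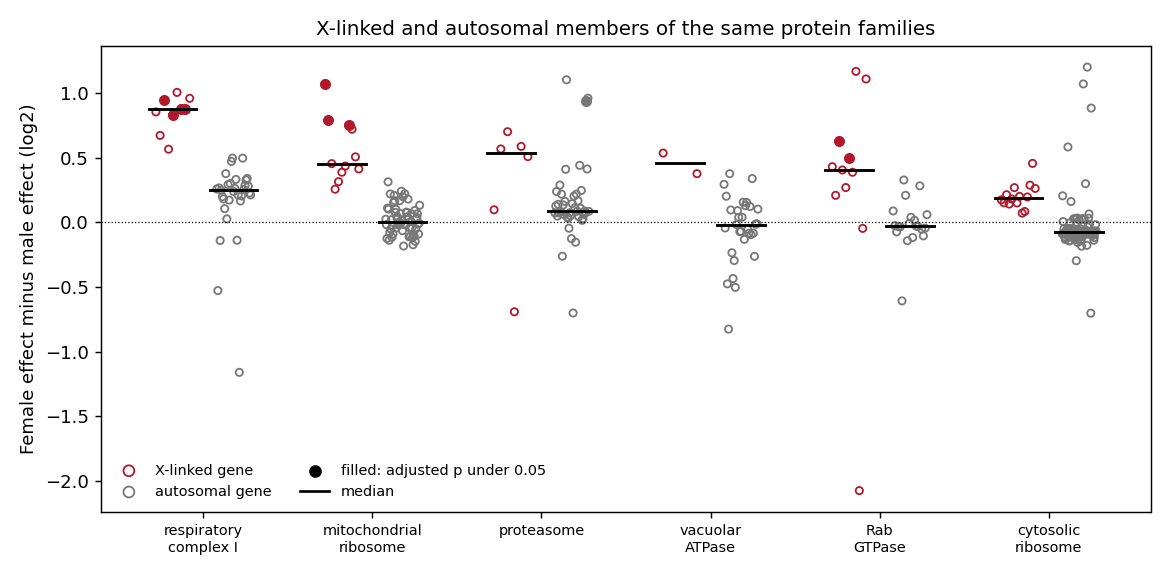
Female transgene effect minus male transgene effect (log2) of each X-linked (red) and autosomal (grey) member of 6 protein families, with a line at each median and filled points for adjusted p under 0.05. The X-linked median is the higher one in every family shown, at 0.88 against 0.25 in complex I and 0.45 against 0.00 in the mitochondrial ribosome. Over all genes tested it is 0.22 against -0.04.

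Genes called in females were then read in males, whose libraries did not enter the female contrast but shared its scaling, its filter on low counts and its estimate of the spread. Within females 1344 genes were called (10.3% of genes tested), and within males 106 (0.812%). Of the female calls 457 were X-linked and higher, with a median log2 effect of 0.49 in females. In males the same 457 genes had a median effect of 0.00, their 25th and 75th percentiles were -0.07 and 0.06, and 50.3% had the sign they had in females. Over all X-linked genes 43.2% had a male effect above 0. The 15 X-linked genes called lower in females had a median male effect of -0.03, with 66.7% below 0.

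Most female calls on chromosomes 2 and 3 had the same sign in males. Of 274 chromosome 3 genes called higher in females, 86.9% were above 0 in males, and the median effect was 0.60 in females and 0.20 in males. Of 322 called lower there, 82.3% were below 0 in males, with medians of -0.45 in females and -0.16 in males. On chromosome 2, 80.5% of 123 genes called higher and 78.6% of 140 called lower kept their sign in males, but with smaller male medians of 0.09 and -0.09. Over all genes tested on chromosome 3 the share above 0 in males was 49.8%, and on chromosome 2 it was 54.4%. The differences between these shares were not tested.

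**Figure D5:**
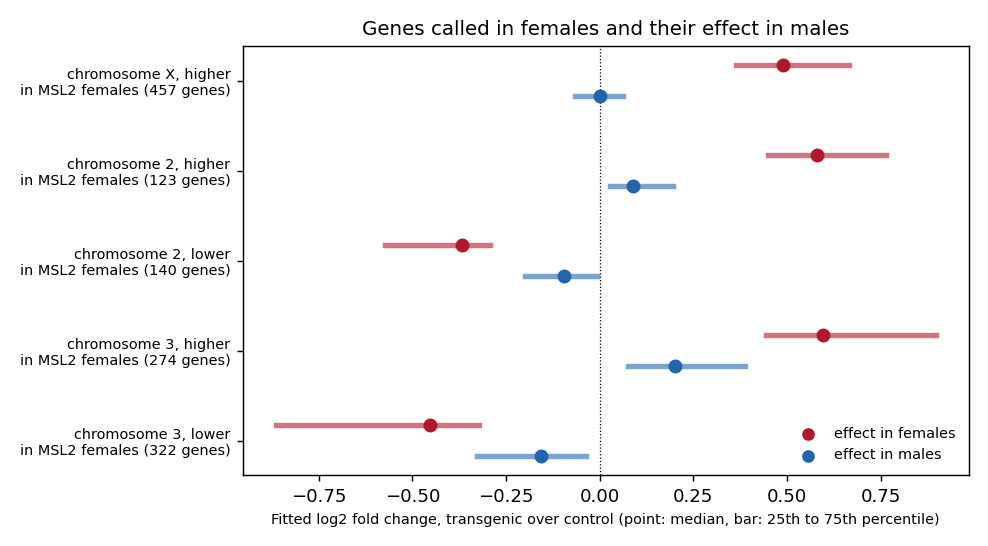
Median (point) and 25th to 75th percentile (bar) of the fitted log2 effect in females (red) and in males (blue) for genes called in females, by chromosome and direction. The 457 X-linked genes called higher have a male median of 0.00, and the chromosome 3 genes called higher and lower have male medians of 0.20 and -0.16.

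Calls within males lay almost all on chromosome 3. Of the 106, 102 were on chromosome 3, 2 were X-linked (w, higher, and mRpL49, lower) and 2 were on chromosome 2 (msl-2 and CG15155, both higher). Of these, w and msl-2 are also carried by the construct. Both sexes shared 68 calls, which is 64.2% of the male calls and 5.06% of the female calls, and 64 of these were on chromosome 3. The direction was the same for 67 of them, 30 higher and 37 lower. tobi, a gene named as a target of brain insulin, averaged 1.10 CPM in MSL2 females and 69.3 CPM in control females, and 1.86 CPM in MSL2 males and 109.7 CPM in control males. Its log2 effect was -6.00 in females and -5.88 in males, a difference of -0.12 ± 0.36 that did not pass (edgeR adjusted p = 0.903). CG42671 rose in both sexes, by 0.99 in females and 1.08 in males (log2; difference -0.09 ± 0.10, adjusted p = 0.720). Since the labels do not say whether MSL2 males carried TM3, the parts of the transgene and of the balancer cannot be told apart in these shared changes, nor in the differences between the sexes on chromosome 3.

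Of the genes with a difference between the sexes on chromosome 3, CG14087 (ms(3)76Ba) had the largest in size and the smallest p of the series. It had 1 count in each MSL2 female library, under the floor, and 8.78, 9.34 and 8.97 CPM in control females. In males it had 10.3, 10.8 and 11.2 CPM with the transgene and 12.6, 12.8 and 11.97 CPM without. MSL2 females were therefore the only group without appreciable transcript, 400.3-fold lower than control females by summed counts (95% Poisson interval 137-fold to 1943-fold). The fitted log2 difference was -8.28 ± 0.20 (edgeR adjusted p = 2.47e-09) and was kept without any single library.

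CG31380 fell in both sexes and further in females. It had 0.225, 0.320 and 0.0782 CPM in MSL2 females, 4.67, 5.30 and 6.65 CPM in control females, 6.59, 5.24 and 6.32 CPM in MSL2 males and 13.4, 11.7 and 14.4 CPM in control males. Neither sex had overlapping groups, and the log2 effect was -4.84 in females and -1.12 in males, a difference of -3.72 ± 0.37 (edgeR adjusted p = 0.00271). CG14118 differed by -1.99 ± 0.28 (edgeR adjusted p = 0.0115), with effects of -1.43 in females and 0.57 in males. Both calls were kept without any single library.

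Lysozyme genes, most of which digest bacterial cell walls in the gut, mostly fell in both sexes, with 6 of 7 called lower in females and 5 in males. LysX was called higher in females, by 2.22 on the log2 scale. Their summed level was 168 to 189 CPM in MSL2 females, 871 to 1509 CPM in control females, 103 to 131 CPM in MSL2 males and 301 to 486 CPM in control males. The list median of the log2 difference was -1.15, and 1 gene was called for it: LysE, at -2.21 ± 0.33 (edgeR adjusted p = 0.0152), with effects of -3.10 in females and -0.90 in males. It did not pass without MSL2 male 1 or MSL2 male 3 (adjusted p = 0.0524), and whether reads shared by its close paralogs were counted is not known. LysC, with -3.72 in females and -2.51 in males, had a difference of -1.21 that did not pass (adjusted p = 0.175).

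Some of the genes with a lower effect in females were expressed mainly in males. CG10407 and its immediate neighbour CG10264, annotated as the juvenile hormone binding protein genes Jhbp5 and Jhbp4, differed by -1.73 ± 0.35 and -1.57 ± 0.25 (edgeR adjusted p = 0.0395 and 0.0165). CG10407 had 4.99, 10.98 and 10.3 CPM in MSL2 females and 35.3, 32.3 and 23.6 CPM in control females, against 178 to 233 CPM in the 6 male libraries. CG11253 (Zmynd10), an assembly factor of ciliary dynein arms, differed by -1.31 and the X-linked CG1503 by -1.47. CG13609 and the homeobox gene HGTX, which differed by -1.35 and -1.31, were not of this kind, with means of 3.63 and 4.90 CPM in control females and 3.31 and 3.15 CPM in control males. HGTX fell by 2.03 in females, while its male effect was -0.72 and did not pass (adjusted p = 0.0696). CG10407, HGTX and CG13609 lost their call without most of the single libraries, and CG11253 and CG1503 without MSL2 male 1 or MSL2 male 3.

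On the higher side CG13032 had 1.48, 2.13 and 3.21 CPM in MSL2 females and 0.525, 0.247 and 0.310 CPM in control females, against 114 to 126 CPM in the 6 male libraries. The female groups did not overlap and the male groups did, and the log2 difference was 2.79 ± 0.36 (edgeR adjusted p = 0.00964). CG7213 had 55 counts over the 3 MSL2 females and 5 over the 3 control females, 13.95-fold more after scaling (95% Poisson interval 5.63-fold to 44.7-fold), and its fitted log2 difference was 4.12 ± 0.44 (edgeR adjusted p = 0.00276). It is the direct neighbour of CG42330 (Dscam4, an immunoglobulin superfamily gene), which rose by 1.36 in females and 0.57 in males (log2). eIF4E-3, a cap-binding protein gene of the testis at 1 gene from CG7213, and CG32364 (tut, which acts in the male germ line) at 4 genes from eIF4E-3 were also called, at 1.24 and 1.45. The call of eIF4E-3 was kept in 1 and that of CG32364 in 6 of the 12 fits that left out a library. Genes at least 8-fold higher in control males than in control females made up 15 of the 138 higher calls (10.9%) and 6 of the 27 lower calls (22.2%), beside 16.2% of all genes tested. Their part in the result was not tested. CG10264 and CG42330 were chosen for mention after their values were seen.

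The remaining largest rises, named by size, were less steady. CG7298 differed by 1.54, Cyp4d14 by 1.51, CG11619 by 1.41, CG6337 by 1.39 and CG14695 by 1.34. Each lost its call without at least 1 library, CG14695 without MSL2 male 3 alone and CG7298 without 11 of the 12.

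A few differences had their larger part in males. CG31041 had 25.1, 38.3 and 36.5 CPM in MSL2 females and 20.5, 21.5 and 18.3 CPM in control females, against 10.3, 6.94 and 8.68 CPM in MSL2 males and 1.97, 1.88 and 2.16 CPM in control males. It rose in both sexes without overlap, by 0.72 in females and 2.11 in males, and the log2 difference was -1.38 ± 0.25 (edgeR adjusted p = 0.0285). The call was lost without any 1 of 7 libraries, at an adjusted p of up to 0.0834: MSL2 males 1 and 3, the 3 control males, and control females 1 and 2. dmrt93B, a gene of the DM domain transcription factor family, had 10 counts over the MSL2 males and 276 over the control males. In females it had 8 counts with the transgene and 2 without, near the floor in every library. MSL2 males, at 3, 5 and 2 counts, were near the floor too. The fitted log2 difference of dmrt93B was 6.89 ± 0.87 (edgeR adjusted p = 0.00859), and the male fall was 28.6-fold (95% Poisson interval 15.3-fold to 60.2-fold). The fitted log2 effect was -4.77 in males and 2.12 in females, where it was not called (edgeR adjusted p = 0.102). mas, a serine protease homologue gene, rose by 2.70 in males, and CG34391 (DIP-delta, a cell surface gene of the immunoglobulin superfamily) by 1.49, with no call in females for either. These genes, other than CG31041, were chosen for mention after their values were seen.

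Among genes of the eye, the rhodopsin genes Rh5 and Rh6, which are used by mutually exclusive kinds of inner photoreceptor R8, moved in opposite directions in females. Rh5 had 9.64, 8.60 and 8.13 CPM in MSL2 females, 19.1, 21.6 and 22.4 CPM in control females, 20.4, 19.7 and 21.1 CPM in MSL2 males and 21.3, 18.9 and 20.3 CPM in control males. MSL2 females alone were low, and the log2 difference was -1.28 ± 0.13 (edgeR adjusted p = 0.00271), kept without any single library. Rh6 had 77.7, 71.6 and 62.5 CPM in MSL2 females, 27.9, 34.1 and 34.3 CPM in control females, 55.1, 53.0 and 55.1 CPM in MSL2 males and 50.8, 43.8 and 47.2 CPM in control males. Here control females were the lowest group, and the log2 difference was 0.93 ± 0.14 (edgeR adjusted p = 0.0152). Rh6 lost its call without any 1 of the MSL2 males or without control male 1, each time with an adjusted p of at most 0.0524.

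Of the 32 photoreceptor genes listed these 2 were called, beside 1.26% of all genes tested. An unadjusted p under 0.05 was found for 6 of the 32, beside 1668 of all 13060 genes tested. The difference was above 0 for 27 of them, beside 50% of all genes. Within females 14 were called higher and 1 lower, beside 10.3% of all genes called in either direction. The median log2 difference of the list was 0.16, beside 0.00 over all genes, and it was 0.08 without MSL2 female 1. The log2 differences of Rh3 and Rh4, the rhodopsins of the other inner photoreceptors, were 0.41 and 0.46 (edgeR adjusted p = 0.209 and 0.194) and that of the channel gene trp was 0.37 (adjusted p = 0.145). The summed level of the list was 6418 to 7768 CPM in MSL2 females, 4996 to 5552 CPM in control females, 6470 to 6967 CPM in MSL2 males and 5578 to 6094 CPM in control males. The summed level thus lay above its controls in both sexes. Among 19 eye pigment genes w alone was called.

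Eggshell genes, expressed in ovarian follicle cells, had a median log2 difference of -1.54 over 22 genes, with no gene called by edgeR, 3 at an unadjusted p under 0.05 and 2 lower by DESeq2. For comparison, 1668 of all 13060 genes tested had an unadjusted p under 0.05. Without MSL2 female 1 the median was -1.03 and edgeR called 2 of them lower. Their summed level was 539 to 1847 CPM in MSL2 females and 2699 to 4651 CPM in control females, without overlap, against 100.1 to 229 CPM in the 6 male libraries. For 34 germline genes the median was -0.21, and 0.02 without MSL2 female 1, with none called, 1 at an unadjusted p under 0.05 and none by DESeq2. For 27 muscle genes it was 0.34, and 0.13 without that library, again with none called, 1 at an unadjusted p under 0.05 and none by DESeq2. The part of tissue make-up in the differences between the sexes was not tested.

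The immune list held 1 call among 36 genes and the detoxification list 3 among 57, beside 1.26% of all genes tested. PGRP-LE, a receptor for bacterial peptidoglycan and X-linked, had 46.1, 43.7 and 41.2 CPM in MSL2 females, 30.3, 32.1 and 29.5 CPM in control females, 21.3 to 22.5 CPM in MSL2 males and 21.4 to 23.6 CPM in control males. MSL2 females stood apart and the male groups overlapped, with a log2 difference of 0.53 ± 0.10 (edgeR adjusted p = 0.0281). It was the 1 call among 36 immune genes, and the list median was 0.38. An unadjusted p under 0.05 was found for 8 of them, beside 1668 of all 13060 genes tested. Without MSL2 female 1 the list median was 0.26 and edgeR called 2 of these genes higher. DESeq2 with all libraries also called 2 higher. The gene dro2, given below, was not in the list. Of 57 detoxification genes the X-linked cytochrome P450 genes Cyp4d2 and Cyp4d14 were called higher, at 1.03 and 1.51, and the glutathione transferase gene GstD3 lower, at -0.64, with a list median of -0.06, and -0.12 without MSL2 female 1. PGRP-LE, Cyp4d2, Cyp4d14 and GstD3 each lost their call without 8 or more of the 12 libraries.

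No gene was called by edgeR in the lists for sex determination (14 genes tested), yolk (3), accessory gland (36), heat shock (28), Turandot stress genes (5), gut proteases (37), fat body (23), neurons (28), loci marked on TM3 (6), insulin and adipokinetic hormone (14), heterochromatin (30) and cytosolic ribosomal proteins (91). The members at an unadjusted p under 0.05 numbered 0, 0, 3, 2, 0, 0, 0, 5, 0, 1, 5 and 7 in that order. Among all 13060 genes tested 1668 had such a p. DESeq2 called 1 neuronal and 2 ribosomal genes higher and none in the other 10. The list medians of the log2 difference ran from -0.27 for heterochromatin genes, of which 2 of 30 were above 0, to 0.17 for the loci marked on TM3, beside 0.00 over all genes tested. Of all genes tested 50% had a difference above 0. Without MSL2 female 1 the median was -0.12 for heterochromatin genes and -0.02 for the TM3 loci, and the 12 medians ran from -0.15 to 0.18. Of 43 testis genes eIF4E-3 was the 1 called, a call kept in 1 of the 12 fits that left out a library. The median of the testis list was -0.12, and 0.09 without MSL2 female 1.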

How the data were processed

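RNA-seq of 12 libraries in 4 groups was analysed from the raw read counts per RefSeq transcript that the authors deposited in an autosomal and an X-linked table. Per the submitters' processing notes, TopHat, HTSeq and the build dm3 were used. Their versions, the counting mode and the handling of strand are not recorded in the sources used here, so overlapping and antisense genes are uncertain. The tables also hold a deposited fraction per library, which equals the count over the total of its own table (largest difference 5.00e-10) and served only for that check. The total row of each table was left out, gene names turned into date serials were restored, and the transcript with the most counts was kept for each of 14161 genes. Chromosome arms, neighbours and the symbols in parentheses come from the Release 6 RefSeq annotation, a later build, so no coordinates are printed. The autosomal table includes 18 tested genes of the Y chromosome.

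One fit of 4 group means used R 4.3.3 and edgeR 4.0.16 (TMM factors over both tables, filterByExpr at its minimum count of 10, then the quasi-likelihood F test). A standard error is the absolute log2 fold change over the square root of F. Alternatives used DESeq2 1.42.0, limma 3.58.1 (voom), other scalings, no filter, the first transcript by accession, other gene subsets, a replicate block and each library left out. Poisson intervals cover 95% and counting error only. Tested on simulated data for the difference between the sexes (12884 genes), the fit called 18.2% of 1.5-fold changes, 61.2% of 2-fold changes and 78.8% of 4-fold changes, with 10 calls among 12685 unchanged genes. Replicates correlated at 0.982 to 0.997 (Pearson, log2 CPM). They are called biological by the labels, which name no separate cultures, so p-values measure the spread between these samples.

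The comparison, members and 22 gene lists (8 of 529 symbols unmatched) were chosen with earlier results of these data known. Named were the listed MSL complex genes, w, roX1, roX2, CG14087 and Rh5; the 10 largest differences in each direction among called genes with a mean of at least 1 CPM in each sex; the 5 smallest adjusted p in each direction; and up to 4 called members of each list. Any other gene named was chosen after its values were seen.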

Additional observations from a re-analysis of the deposited data

Results flagged for a closer look

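What marked each of these results is that the transgene effect differed between females and males in the test of the difference itself. The 165 genes called, and the shift of 0.255 (log2) of X-linked against autosomal genes, are the overall results. The shift is a difference of medians, and over libraries the permutation p was 0.1, the smallest that 3 against 3 can give.

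X-linked genes with a higher effect in females were roX2 (log2 difference 6.21), roX1 (4.93), w (2.0), Cyp4d14 (1.51), mRpL14 (1.07), Cyp4d2 (1.03), msta (0.98), mRpL49 (0.75) and PGRP-LE (0.53), and CG1503 (-1.47) had a lower one. Counts of w may include transcripts of the mini-white marker. On the CPM scale the rise of w was 18.03 CPM in females and 19.8 CPM in males. Autosomal genes with a higher effect in females were CG7213 (4.12), CG13032 (2.79), CG7298 (1.54), CG32364 (1.45), CG11619 (1.41), CG6337 (1.39), CG14695 (1.34), eIF4E-3 (1.24) and Rh6 (0.93). Autosomal genes with a lower effect in females were CG14087 (-8.28), CG31380 (-3.72), LysE (-2.21), CG14118 (-1.99), CG10407 (-1.73), CG31041 (-1.38), CG13609 (-1.35), HGTX (-1.31), CG11253 (-1.31), Rh5 (-1.28) and GstD3 (-0.64).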

How the results depend on the processing

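None of the 165 genes changed direction in any alternative, but the number called moved; causes were not tested. DESeq2 called 304 higher and 115 lower genes (X-linked higher 243, chromosome 3 128), and voom 14 lower (chromosome 3 23). With each library left out in turn, the calls ranged over 19 to 197 higher, 4 to 53 lower, 13 to 157 X-linked higher and 8 to 67 on chromosome 3. The X-linked shift was 0.275 over genes with a mean log2 CPM of at least 3 and 0.293 over genes within 1 log2 between control sexes, and the per-library difference was 0.276 over genes at that level. RLE scaling, TMM from autosomal genes, no filter and the first transcript gave 118, 207, 157 and 162 calls. RLE and autosomal scaling moved the median difference of all genes by -0.04 and 0.04. The difference of mle, 0.00 as reported, was -0.042 with DESeq2, -0.039 with RLE and -0.0043 with voom, and -0.058 to 0.050 with a library left out. Depth limits the genes near 3 counts per library, among them CG14087 in MSL2 females and dmrt93B in females and in MSL2 males.

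Deviations of same-numbered libraries from their group means correlated at -0.556 to 0.598. Libraries with different numbers were not compared, so this range cannot decide whether replicate numbers pair the samples. A fit with the replicate number as a block gave 7 higher and 3 lower calls, of which 5 were X-linked higher and 4 on chromosome 3, and all 10 were among the 165. They were roX1, roX2, mRpL14, mRpL49, msta, CG7213, dro2, CG14087, CG31380 and Rh5. CG13032, CG14118 and dmrt93B kept their calls without any single library but did not pass with the block (edgeR adjusted p = 0.0529, 0.0551 and 0.0551).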

Other observations

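Some genes of motile cilia, and dro2, were chosen after their values were seen. Dhc98D, a dynein heavy chain gene of the axoneme, had 0.694, 1.07 and 0.899 CPM in MSL2 females and 1.58, 1.57 and 2.03 CPM in control females, against 55.8 to 63.8 CPM in the 6 male libraries. CG31320, annotated as the dynein arm assembly factor gene Dnaaf5, had 5.63, 6.71 and 6.35 CPM in MSL2 females, 9.45, 8.88 and 7.67 CPM in control females, 57.4, 55.0 and 60.5 CPM in MSL2 males and 51.0, 45.7 and 49.9 CPM in control males. Both were lower in MSL2 females than in control females without overlap, with log2 differences between the sexes of -1.12 ± 0.18 and -0.71 ± 0.13 (edgeR adjusted p = 0.0189 and 0.0299). CG14127, annotated as CCDC151, a docking factor of outer dynein arms, went the other way through its males. It had 0.188, 0.249 and 0.176 CPM in MSL2 females, 0.233, 0.141 and 0.181 CPM in control females, 0.313, 0.367 and 0.350 CPM in MSL2 males and 1.06, 1.35 and 1.34 CPM in control males. The female groups overlapped and the male groups did not, for a log2 difference of 1.99 ± 0.34 (edgeR adjusted p = 0.0202). Each of these 3 calls was lost without any 1 of the MSL2 males.

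dro2 (Drsl2), a paralog of the antifungal peptide gene Drosomycin, rose in females on chromosome 3. It had 24.5, 12.7 and 12.1 CPM in MSL2 females, 0.263, 0.530 and 0.349 CPM in control females, 0.782, 1.68 and 0.856 CPM in MSL2 males and 0.689, 0.557 and 0.593 CPM in control males. MSL2 females stood far above the other 9 libraries, and the log2 difference was 4.56 ± 0.57 (edgeR adjusted p = 0.00859). The call was kept without any single library.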
